A study of Mus musculus with 9 samples.

Results

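The genes described here break down heme and move, store or signal iron, and they were chosen by name: heme oxygenase 1 (Hmox1), the biliverdin reductases Blvra and Blvrb, the ferritin chains Fth1 and Ftl1, ferroportin (Slc40a1), hepcidin (Hamp), the transferrin receptor (Tfrc) and the metal transporters Slc11a1 and Slc11a2. The choice was made with earlier results of these data known. All 10 were found among the 26146 genes of the deposited table. Poly(A) RNA had been sequenced from RAW264.7 cells, a macrophage-like line from a mouse tumour, in 9 libraries that form 3 groups of 3. The series asks how an extract from Traditional Chinese Medicine shifts expression in cells given lipopolysaccharide (LPS), the cell wall component of bacteria that Toll-like receptor 4 senses. Normal libraries came from cells with neither agent. For the treated groups the sample titles and table columns go against the library names, so each group is called after its columns. The ET libraries are titled LPS and the M libraries LPS+Extract, but the library names in the same labels are M for the former and ET for the latter. By the titles, M against ET shows the extract added to LPS, and by the library names it shows LPS without the extract against LPS with it. These readings cannot be told apart from the labels, and the direction of any extract effect turns with them. The labels name no plant, dose or exposure time. All groups share 1 cell line, and nothing states that replicates were separate cultures, so p-values measure the spread between these libraries only.

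Heme oxygenase 1 opens the heme ring and releases iron, carbon monoxide and biliverdin, which biliverdin reductase turns into bilirubin. Freed iron is stored in ferritin shells built of heavy and light chains or leaves the cell through ferroportin, the known cellular iron exporter, which the peptide hormone hepcidin binds and sends to degradation. Macrophages recycle the iron of old red cells by this route, and inflammation is known to make them hold iron back. Iron regulatory proteins add a layer on the RNA itself: in iron-poor cells they bind hairpins called iron-responsive elements, which blocks translation when the hairpin lies in the 5′ untranslated region (ferritin, ferroportin) and protects the RNA from decay when it lies in the 3′ untranslated region (transferrin receptor).

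Total counts per library lay between 55039858 and 76242718. Of 10 macrophage markers, 9 exceeded 1 CPM (counts scaled to library size) in some library, and Mertk reached at most 8 counts. Their summed CPM was 5051 to 5230 (Normal), 5665 to 5960 (ET) and 5522 to 5647 (M). Single markers within that sum moved both ways. Mean CPM of Spi1 was 293 (Normal), 214 (ET) and 209 (M), and Csf1r, Lyz2 and Fcgr1 were also lower in both treated groups. Itgam stood at 149, 464 and 475 in the same order, and Cd14, Adgre1 and Cd68 were also higher in both. Ptprc was lower in ET and higher in M. Among the erythroid markers in the table, which bear on heme because red cell precursors make it, 9 of 10 stayed under 1 CPM in every library. The erythroid sum was 0.277 to 0.808 (Normal), 1.55 to 2.14 (ET) and 1.42 to 2.63 (M). Of 7 fibroblast and endothelial markers, 4 stayed under 1 CPM throughout, and the sum was 5.48 to 6.76 (Normal), 19.9 to 22.4 (ET) and 24.3 to 25.9 (M), whose part in the results was not tested. Of 4 lymphocyte markers, 3 stayed under 1 CPM, with sums of at most 2.16. ET replicate 3 lay farther from its group, with a chi-square per gene of 19.7 and 16.5 to its fellows, whose own distance was 11.7. Calls of the genes named below that change without it are given beside them.

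The hairpins by which iron regulatory proteins read these transcripts are shown because they set apart members with a strict pattern match from the rest. A search of GENCODE M21 coding transcripts (GRCm38) for the pattern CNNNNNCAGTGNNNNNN, with the 5 bases on each side of the 6-base loop able to pair (G with T allowed), found it in 4 of the 10 members. It was in the 5′ untranslated region of 0.149% of 20834 genes and in the 3′ untranslated region of 0.682% of 21107 genes. The loop is in capitals, with 6 bases of flank beyond the pattern, in DNA letters 5′ to 3′.
Fth1, 5′ region (chr19:9982732-9982760, plus strand): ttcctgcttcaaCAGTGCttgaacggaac
Ftl1, 5′ region (chr7:45459779-45459807, minus strand): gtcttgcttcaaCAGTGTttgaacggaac
Slc40a1, 5′ region (chr1:45925465-45925493, minus strand): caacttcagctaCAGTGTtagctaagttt
Tfrc, 3′ region, hairpin a (chr16:32631219-32631247, plus strand): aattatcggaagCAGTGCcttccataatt
Tfrc, 3′ region, hairpin b (chr16:32631598-32631626, plus strand): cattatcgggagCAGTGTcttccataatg
Tfrc, 3′ region, hairpin c (chr16:32631663-32631691, plus strand): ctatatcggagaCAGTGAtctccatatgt
Tfrc, 3′ region, hairpin d (chr16:32631710-32631738, plus strand): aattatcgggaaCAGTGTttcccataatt
Fth1, Ftl1 and Slc40a1 carried 1 hairpin each, ahead of the coding region, and Tfrc carried 4, behind it. Not every annotated transcript holds them: 4 of 5 coding transcripts of Fth1 did, 2 of 3 of Ftl1, 1 of 4 of Slc40a1 and 1 of 3 of Tfrc. For Slc11a2, whose known element has an extra bulge, this strict pattern gave no match, and none was found in Hmox1, Blvra, Blvrb, Hamp or Slc11a1.

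Counted as a group, 9 of the 10 genes rose in ET and none fell, where 35% of 11536 tested genes were called higher, 35.2% lower and 70.2% in all. In M 7 rose and 2 (Blvrb and Slc40a1) fell, where 35.5% of genes were called higher, 34.5% lower and 70% in all. Blvra was the gene not called in either comparison. A share of 9 in 10 lies above those backgrounds, but most tested genes were called, and Hamp passed the filter on low values only through treated libraries. Slc40a1 passed it only through Normal and ET libraries. Since the members were chosen with earlier results of these data known, their counts, here and between M and ET, are descriptions only. The median log2 change of the members was 1.34 in ET and 1.32 in M, against -0.02 and -0.01 over all tested genes. These comparisons share the Normal libraries. The called members were also those whose libraries did not overlap with Normal, where 73.2% of tested genes (ET) and 74.8% (M) did not overlap.

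Between M and ET, 1 member (Hamp) was higher and 6 were lower (Hmox1, Blvra, Blvrb, Fth1, Ftl1, Slc40a1), where 4.97% of tested genes were called higher, 4.12% lower and 9.08% in all. The median log2 change was -0.29, against 0.00 over all tested genes. The count behind 9.08%, 1048 genes, was 1828 without ET replicate 3, and 549, 536, 561, 681 and 537 without ET replicates 1 and 2 and M replicates 1, 2 and 3. The members not called were Tfrc, Slc11a1 and Slc11a2. Libraries did not overlap for 8 members (1 higher, 7 lower), where 28.7% of genes did not. Slc40a1 and Hamp passed with a log2 change of at least 1 in size, where 0.468% of genes did. Slc40a1 passed the filter on low values only through Normal and ET libraries, where it was higher. Hamp passed that filter only through treated libraries. Its call ended without ET replicate 1, M replicate 2 or M replicate 3 and with no filter (edgeR adjusted p of 0.0576 to 0.0827). Their passing is thus not read as a result about the members. The count of 7 called members was 5 without ET replicate 1, M replicate 2 or M replicate 3, and 8 without Normal replicate 2 or ET replicate 3. The mean of both treated groups against Normal does not depend on the conflict in the labels. It gave 7 members higher and none lower, where 36.8% of tested genes were called higher, 36.8% lower and 73.5% in all. Blvra, Blvrb and Slc40a1 were not called there.

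**Figure D1:**
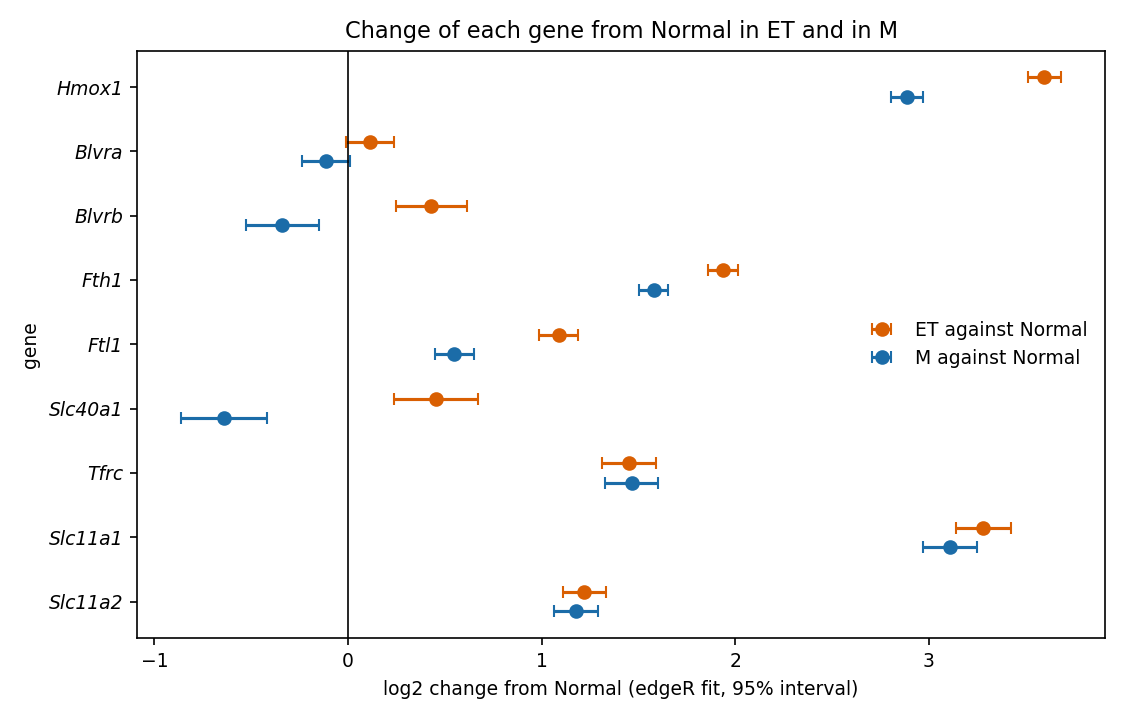
Fitted log2 change from Normal (horizontal axis) for ET (orange) and M (blue), with 95% intervals, for 9 of the genes. Hamp is left out because a fold against 0 counts rests on the model's prior. Blvrb and Slc40a1 lie on opposite sides of 0, and the intervals of Blvra include 0.

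**Figure D2:**
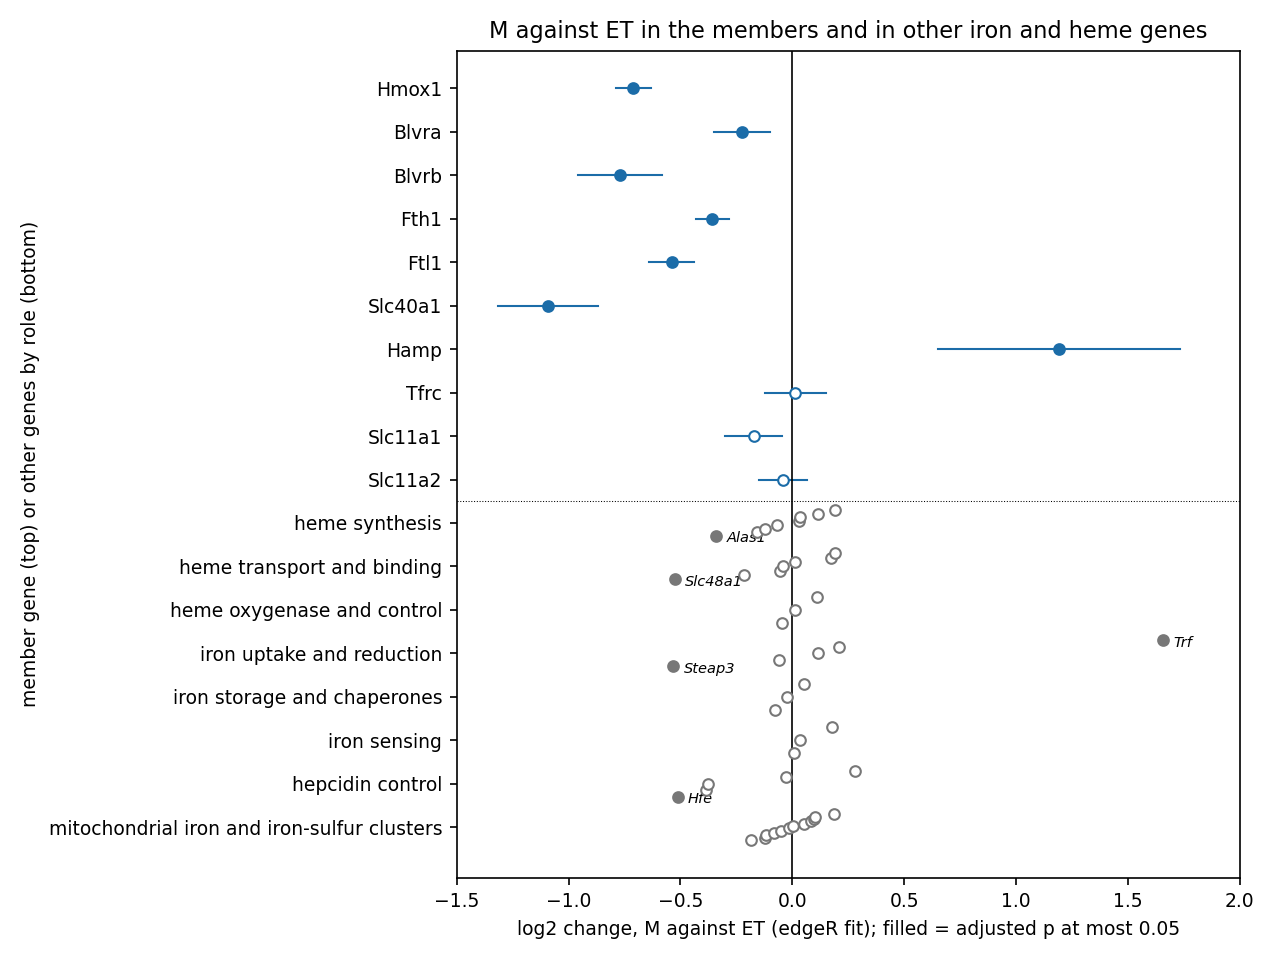
Fitted log2 change of M from ET (horizontal axis) for the 10 members with 95% intervals (blue, top) and for the 46 tested genes of the wider list by role (grey, bottom), filled where the edgeR adjusted p was at most 0.05. Slc40a1 is the lowest member and Hamp the highest, and Trf stands far to the right among the other genes.

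Heme oxygenase 1 rose strongly in both treated groups, and more in ET than in M. Hmox1 (ENSMUSG00000005413, chr8:75093621-75100589, plus strand) stood at 65.2, 67.6 and 67.1 CPM (Normal), 815, 819 and 783 CPM (ET) and 477, 509 and 491 CPM (M) (CPM here are scaled by trimmed mean of M values, TMM). The groups did not overlap. In bulk RNA, fewer expressing cells and less RNA per cell cannot be told apart. Folds and percentages are ratios of mean CPM, and log2 changes are those of the edgeR fit. The rise over Normal was 12.1-fold in ET (log2 change 3.60 ± 0.039 SE, edgeR adjusted p = 3.54e-15) and 7.39-fold in M (log2 change 2.88 ± 0.038 SE, edgeR adjusted p = 1.12e-14). M was 38.9% below ET (log2 change -0.71 ± 0.035 SE, edgeR adjusted p = 6.48e-07). Hmox2, the constitutive heme oxygenase, was not called in any comparison, at 56.3 ± 2.29 CPM (Normal), 52.7 ± 2.74 (ET) and 53.2 ± 0.848 (M) (SD, n = 3). With total counts only it was called lower in both treated groups (log2 change -0.17 in each, edgeR adjusted p = 0.0108 in ET and 0.0106 in M).

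The biliverdin reductases stayed within a narrower range. Blvrb (ENSMUSG00000040466, chr7:27447978-27466144, plus strand), which reduces flavins as well as biliverdin, stood at 23.0, 23.5 and 22.6 CPM (Normal), 32.3, 31.7 and 29.2 CPM (ET) and 20.5, 18.2 and 16.1 CPM (M). All ET libraries were above Normal and all M libraries below it. The change from Normal was a rise in ET (log2 change 0.43 ± 0.085 SE, edgeR adjusted p = 0.000584) and a fall in M (log2 change -0.34 ± 0.086 SE, edgeR adjusted p = 0.00351). M was 41.4% below ET (edgeR adjusted p = 0.000163). Blvra (ENSMUSG00000001999, chr2:127070665-127097084, plus strand), the main adult biliverdin reductase, stood at 68.4, 63.5 and 68.1 CPM (Normal), 76.5, 71.8 and 68.0 CPM (ET) and 63.7, 63.5 and 57.6 CPM (M), and each treated group overlapped Normal. It did not pass the test in ET (log2 change 0.11 ± 0.057 SE, edgeR adjusted p = 0.0984) or M (log2 change -0.11 ± 0.058 SE, edgeR adjusted p = 0.0955). M was 14.5% below ET (edgeR adjusted p = 0.0297), a call that ended when any of ET replicate 1, ET replicate 2 or an M library was left out (edgeR adjusted p of 0.0516 to 0.113). That call also ended with no filter on low values (edgeR adjusted p = 0.0824). Against Normal, Blvra was called lower in M with total counts only (log2 change -0.21, edgeR adjusted p = 0.00524). Limma fits with pseudocounts of 1 and 0.1 also called it lower in M (limma adjusted p = 0.00655 and 0.00695). It was called higher in ET without ET replicate 3 (log2 change 0.16, edgeR adjusted p = 0.025).

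**Figure D3:**
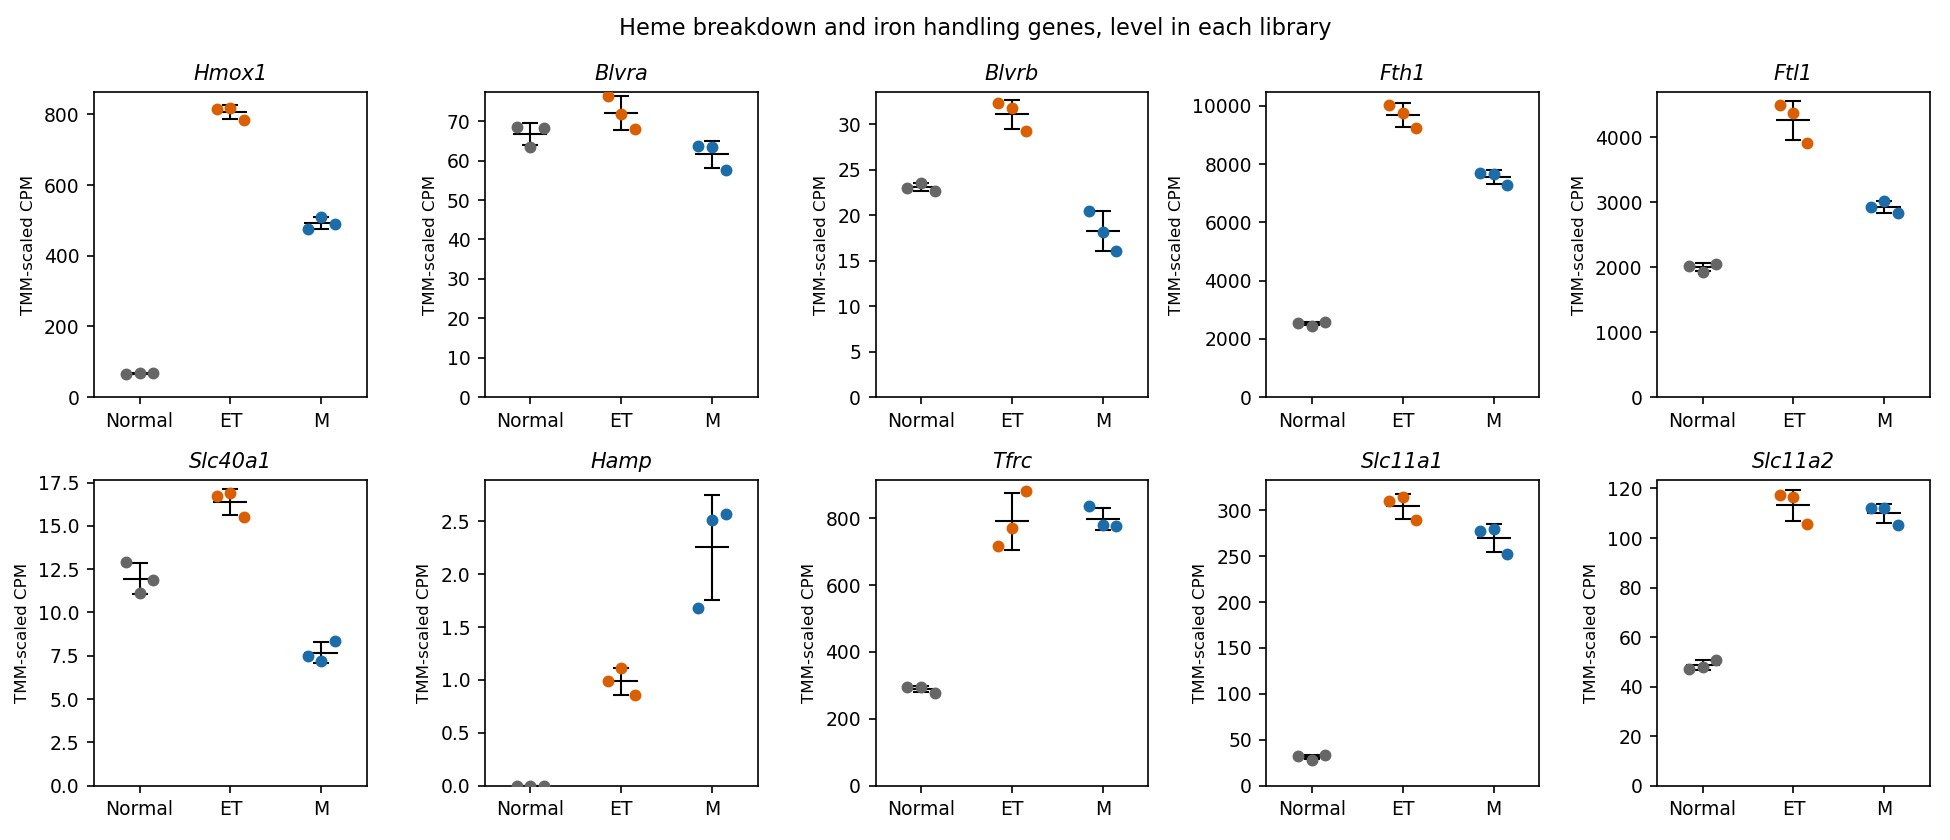
Level of each of the 10 genes in TMM-scaled CPM (vertical axes, from 0) in the Normal, ET and M libraries, with each point 1 library and the bars the mean ± SD of 3. Hmox1, Fth1 and Ftl1 are higher in ET than in M and lowest in Normal, while Blvrb and Slc40a1 lie above Normal in ET and below it in M.

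Ferritin RNA, already abundant in Normal, rose in both treated groups, and more in ET than in M. Fth1 (ENSMUSG00000024661, chr19:9980598-9985092, plus strand), the ferroxidase chain, stood at 2563, 2459 and 2569 CPM (Normal), 10049, 9774 and 9244 CPM (ET) and 7714, 7665 and 7299.7 CPM (M). Ftl1 (ENSMUSG00000050708, chr7:45457944-45459884, minus strand), the chain that favours mineral formation, stood at 2025, 1932 and 2058 CPM (Normal), 4496, 4371 and 3917 CPM (ET) and 2934, 3024 and 2839 CPM (M). For both genes every ET library was above every M library, and every M library above Normal. Fth1 rose 3.83-fold in ET (edgeR adjusted p = 9.97e-14) and 2.99-fold in M (edgeR adjusted p = 5.14e-13). Ftl1 rose 2.13-fold in ET (edgeR adjusted p = 3.96e-10) and 1.46-fold in M (edgeR adjusted p = 3.12e-07). M was below ET by a log2 change of -0.36 ± 0.034 (SE) for Fth1 (edgeR adjusted p = 4.68e-05) and by 31.2% for Ftl1 (edgeR adjusted p = 2.51e-05). Together these chains took 0.457 to 0.479% of all counts (Normal), 1.29 to 1.42% (ET) and 0.989 to 1.04% (M). Per length (FPKM, fragments per kilobase scaled to library size), Fth1 ranked 46 or 47 among all genes (Normal), 10 to 15 (ET) and 14 to 16 (M). Ftl1 ranked 18 to 20, 8 to 10 and 13 to 16 in the same order.

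The ratio of Fth1 to Ftl1 FPKM within a library was 0.489, 0.492 and 0.482 (Normal), 0.863, 0.864 and 0.912 (ET) and 1.02, 0.979 and 0.993 (M). By FPKM, which divides by gene length, the heavy chain stood lowest against the light chain in Normal and was near parity in M. In counts, Fth1 exceeded Ftl1 in every library, with Fth1 means of 169606.7 (Normal), 565467.0 (ET) and 435031.7 (M). The level of the ratio thus rests on the lengths used, while its folds between groups were the same in counts. The mean ratio was 1.80-fold that of Normal in ET and 2.04-fold in M, and 1.13-fold higher in M than in ET, with no overlap between groups (exact two-sided permutation test, p = 0.1 in each comparison, the smallest that 3 against 3 libraries allow). Reads of ferritin genes can be split with processed copies. Among the copies, Ftl1-ps1 held on average 1978.3 counts (Normal), 3631.0 (ET) and 2423.0 (M). Ftl2-ps held 496.3, 879.7 and 620.3 in the same order, against 134270.3, 248644.7 and 168706.3 for Ftl1. Fth-ps2 and Ftl1-ps2 had at most 20 counts in any library. Gm10252, on the opposite strand, overlaps Ftl1 by 416 bases and had 225 to 745 counts.

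**Figure D4:**
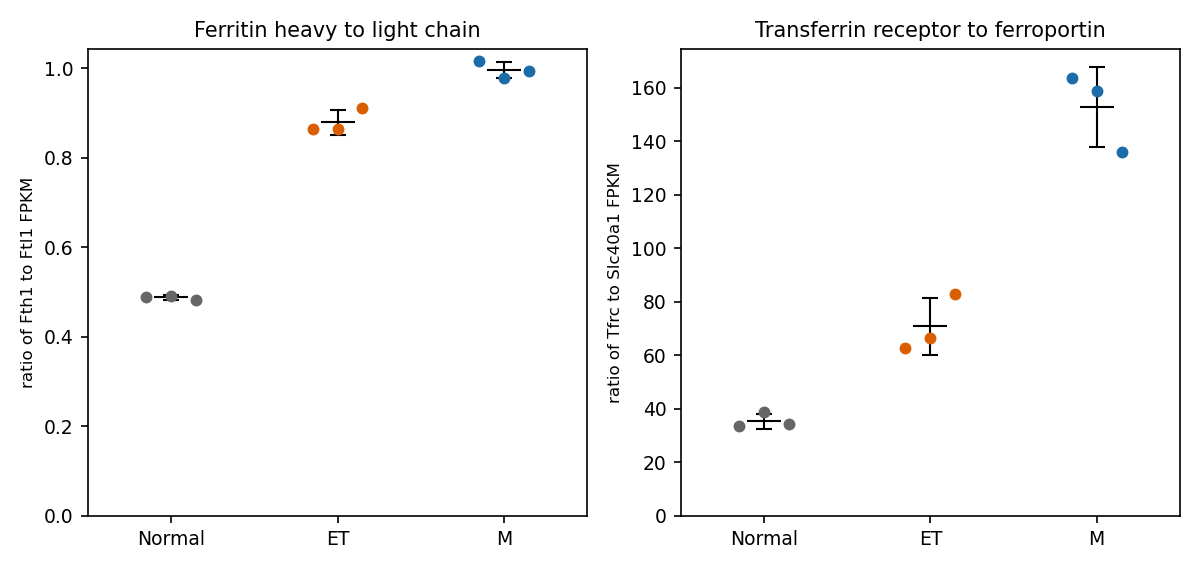
Ratio of FPKM values within each library for Fth1 to Ftl1 (left) and Tfrc to Slc40a1 (right), with each point 1 library, the bars the mean ± SD of 3, and vertical axes from 0. Both ratios are lowest in Normal and highest in M, with no overlap between groups.

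Ferroportin moved to opposite sides of Normal in the treated groups. Slc40a1 (ENSMUSG00000025993, chr1:45908068-45926523, minus strand) stood at 12.9, 11.1 and 11.9 CPM (Normal), 16.7, 16.9 and 15.5 CPM (ET) and 7.48, 7.18 and 8.36 CPM (M), from 403 to 1029 counts per library. Every ET library was above every Normal library, and every M library below. It rose 1.37-fold in ET (log2 change 0.45 ± 0.10 SE, edgeR adjusted p = 0.00133). In M it was 35.8% below Normal (log2 change -0.64 ± 0.10 SE, edgeR adjusted p = 0.000107). M was 53.1% below ET (log2 change -1.09 ± 0.10 SE, edgeR adjusted p = 4.48e-05), the largest fall among the members in that comparison. Its level was low per length, at 1.28 ± 0.0926 FPKM (Normal), 1.66 ± 0.0805 (ET) and 0.771 ± 0.0643 (M) (SD, n = 3). No M library reached an FPKM of 1, and all Normal and ET libraries did. The gene thus passed the filter on low values only through groups where it was higher, and its falls in M are to be read with that.

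Hepcidin was at 0 counts in all Normal libraries and low in treated cells. Hamp (ENSMUSG00000050440, chr7:30942368-30944032, minus strand) had 61, 60 and 51 counts in the ET libraries and 99, 141 and 148 in M, or 0.990, 1.11 and 0.860 CPM and 1.68, 2.51 and 2.57 CPM. Against a floor of 3 counts per Normal library (0.0378 to 0.0509 CPM, counting error only), it was at least 21.7-fold higher in ET and at least 49.7-fold higher in M. The gene passed the filter on low values only through treated libraries, so its calls against Normal follow in part from that filter. Every M library was above every ET library, and M was 2.29-fold higher (log2 change 1.19 ± 0.25 SE, edgeR adjusted p = 0.016). That call ended without ET replicate 1 (edgeR adjusted p = 0.0579), without M replicate 2 (0.0576), without M replicate 3 (0.0658) and with no filter on low values (0.0827). A long noncoding gene on the opposite strand, Gm44662, covers Hamp and had 15 to 40 counts per library, and the labels state no strand setting for the counting. Hamp2, the close copy of hepcidin, had at most 4 counts in any library. Of the liver cell markers in the table, Apoa1, Apoa2 and Fgb had at most 13 counts per library, and the others were Hamp itself and Trf.

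In liver, hepcidin is known to be switched on by interleukin-6 through STAT3 and by bone morphogenetic proteins through SMAD factors, so the bases ahead of Hamp are shown with the matching letters. RefSeq promoter windows (GRCm38.p6, 250 bases before to 50 after a start) held 7 of the 10 members. The stretch of 140 bases ends 10 bases ahead of the RefSeq start, on the minus strand, and the capitals mark, from left to right, GGCGCC (a motif of bone morphogenetic protein response), TTCNNNGAA (a STAT-type motif) and TGANTCA (an AP-1-type motif), each searched on both strands.
Hamp promoter (chr7:30944040-30944179, minus strand): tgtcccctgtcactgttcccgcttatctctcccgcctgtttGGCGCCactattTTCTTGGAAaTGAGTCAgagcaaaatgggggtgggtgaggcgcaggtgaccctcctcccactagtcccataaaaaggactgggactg
These 3 motifs did not overlap one another and lay 109, 97 and 87 bases ahead of the start by their outer ends. They occur in 11.9%, 8.30% and 7.81% of 32851 windows of this kind. Among the other members with a window, Tfrc held GGCGCC, and Blvra held TGACNNNGC (the core of the antioxidant response element, in 12.4% of windows). No window of Blvrb, Fth1, Ftl1 or Slc11a1 held any of these motifs or CACGTG (an E-box, in 7.15% of windows). A match is a description of letters and not of binding.

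Iron and metal uptake genes rose in both treated groups, and none of the 3 passed the test between M and ET. Tfrc (ENSMUSG00000022797, chr16:32608920-32632794, plus strand), which takes up transferrin-bound iron, stood at 296, 294 and 278 CPM (Normal), 719, 770.3 and 883 CPM (ET) and 836, 779.6 and 778 CPM (M). It rose 2.73-fold in ET (edgeR adjusted p = 4.86e-10) and 2.76-fold in M (edgeR adjusted p = 4.42e-10). ET and M overlapped, with a log2 change of M from ET of 0.013 and a 95% interval of -0.12 to 0.15 (edgeR adjusted p = 0.923). Slc11a1 (NRAMP1, ENSMUSG00000026177, chr1:74375195-74386052, plus strand), the metal pump of phagosomes and late endosomes, stood at 32.5, 28.5 and 33.1 CPM (Normal), 310.0, 314 and 289 CPM (ET) and 278, 280.1 and 252 CPM (M). It rose 9.71-fold in ET (edgeR adjusted p = 2.18e-13) and 8.61-fold in M (edgeR adjusted p = 3.24e-13). Every M library was below every ET library, but the difference did not pass (log2 change -0.17 ± 0.058 SE, edgeR adjusted p = 0.0845). It did pass in DESeq2 (adjusted p = 0.0221), and in edgeR without Normal replicate 2 (adjusted p = 0.0487) or without ET replicate 3 (adjusted p = 0.0308). Slc11a2 (DMT1, ENSMUSG00000023030, chr15:100387898-100424092, minus strand), which carries iron out of endosomes, stood at 47.1, 47.9 and 50.9 CPM (Normal), 117, 116 and 106 CPM (ET) and 112, 112 and 105 CPM (M). It rose 2.33-fold in ET (edgeR adjusted p = 3.07e-10) and 2.26-fold in M (edgeR adjusted p = 4.26e-10), and M from ET had a 95% interval of -0.15 to 0.067 on the log2 scale (edgeR adjusted p = 0.648). Counts per gene do not separate the Slc11a2 transcripts with and without the 3′ iron-responsive element.

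The ratio of importer to exporter RNA, Tfrc to Slc40a1 FPKM, was 33.4, 38.6 and 34.2 (Normal), 62.8, 66.5 and 83.0 (ET) and 164, 159 and 136 (M). No groups overlapped. The mean ratio was 2.00-fold that of Normal in ET and 4.32-fold in M, and 2.16-fold higher in M than in ET (exact two-sided permutation test, p = 0.1 in each comparison, the smallest possible). Between ET and M, Slc40a1 passed the test and Tfrc did not, as given above. In M, Tfrc stood at 1.01-fold and Slc40a1 at 0.469-fold of ET by mean CPM. The change of the ratio between M and ET thus mostly restates that of Slc40a1. No M library reached an FPKM of 1 for Slc40a1, which passed the filter only through groups where it was higher.

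Beyond the 10 members, a wider list covers heme synthesis, heme transport, iron uptake, storage, sensing and export, control of hepcidin, and mitochondrial iron. Of its 63 genes in the table, 46 were tested. In ET 13 rose and 20 fell (median log2 change -0.12, against -0.02 for all tested genes), and in M 13 rose and 19 fell (median -0.07, against -0.01). The share called, 33 and 32 of 46, is near the 70.2% and 70% of all tested genes, and the rises include 4 genes that passed the filter only through treated libraries (Lcn2, Trf, Id1 and Smad7). The falls include Smad6, which passed it only through Normal and ET libraries, where it was higher than in M. Between M and ET, 1 was higher and 4 were lower, a share near the 9.08% of all tested genes called there, and DESeq2 called 8.

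Among the tested genes of that list with a mean FPKM of 5 or more in the higher group, the largest rises from Normal were those of Lcn2, Trf and Id1. These genes, like Hamp, passed the filter only through treated libraries, so their calls against Normal follow in part from that filter. Trf, which encodes transferrin, the iron carrier of plasma, stood at 1.96, 1.51 and 1.88 CPM (Normal), 94.8, 119.6 and 84.0 CPM (ET) and 334, 316 and 289.7 CPM (M). It rose 55.8-fold in ET (edgeR adjusted p = 2.67e-12) and 176-fold in M (edgeR adjusted p = 2.82e-13), and M was 3.15-fold above ET (edgeR adjusted p = 2.31e-06). Lcn2, the lipocalin that binds bacterial iron carriers, was at 0 counts in Normal and reached 230.1, 230.1 and 213 CPM in ET and 279.7, 267 and 232 in M. That is at least 4947-fold and 5724-fold above the floor of 3 counts, and M from ET did not pass (edgeR adjusted p = 0.0738), but did without M replicate 3 (edgeR adjusted p = 0.0187) and in DESeq2 (adjusted p = 0.0205). Lcn2 is also a granule gene of neutrophils, whose other markers in the table, apart from S100a8 (31.5 CPM in ET, 33.0 in M), had at most 22 counts. Id1, a target of bone morphogenetic protein signals, rose in both treated groups, standing at 0.618 ± 0.0419 CPM (Normal), 11.3 ± 0.818 (ET) and 8.62 ± 0.504 (M) (SD, n = 3, edgeR adjusted p = 4.01e-11 in ET and 9.31e-11 in M).

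Of the 3 tested genes of heme oxygenase and its control, 2 fell in both treated groups, where Hmox1 rose, and Hmox2 was not called, where 35.2% (ET) and 34.5% (M) of all tested genes were called lower. Nfe2l2, the gene of the antioxidant activator NRF2, stood at 190.0 ± 3.40 CPM (Normal), 81.1 ± 4.62 (ET) and 87.6 ± 5.48 (M) (SD, n = 3, edgeR adjusted p = 3.79e-10 in ET and 9.18e-10 in M). Bach1, the heme-sensing repressor of Hmox1, stood at 35.1 ± 1.87 CPM (Normal), 14.2 ± 2.03 (ET) and 13.8 ± 0.525 (M) (edgeR adjusted p = 8.99e-08 in ET and 6.51e-08 in M). Neither differed between M and ET past the test (edgeR adjusted p = 0.213 for Nfe2l2 and 0.822 for Bach1). Ncoa4, the receptor that delivers ferritin to autophagy, fell as well, standing at 116 ± 1.95 CPM (Normal), 79.4 ± 2.61 (ET) and 82.3 ± 3.64 (M) (edgeR adjusted p = 1.60e-07 in ET and 4.20e-07 in M).

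Of the 3 tested iron sensors, 2 fell in ET and 1 in M, where 35.2% and 34.5% of all tested genes were called lower. Aco1 (IRP1) fell by 0.39 on the log2 scale in ET (edgeR adjusted p = 1.13e-05) and by 0.35 in M (edgeR adjusted p = 2.56e-05). Ireb2 (IRP2) fell by 0.15 in ET (edgeR adjusted p = 0.0385) and had a change of 0.022 in M (edgeR adjusted p = 0.762). The Ireb2 call in ET ended without any of Normal replicates 1 and 2, ET replicates 1 and 2 or M replicates 2 and 3 (edgeR adjusted p of 0.0517 to 0.215) and with relative log expression factors (edgeR adjusted p = 0.0531). Between M and ET, Ireb2 did not pass (edgeR adjusted p = 0.0914), but was called higher in M without ET replicate 3 (log2 change 0.24, edgeR adjusted p = 0.0117) and in DESeq2 (log2 change 0.17, adjusted p = 0.0383). Fbxl5, which marks IRP2 for degradation when iron is plentiful, was not called (edgeR adjusted p = 0.0807 in ET and 0.0999 in M), except with total counts only (log2 change -0.19 in ET, edgeR adjusted p = 0.00672, and -0.20 in M, edgeR adjusted p = 0.00529) and in M without M replicate 1 (edgeR adjusted p = 0.044).

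Between M and ET, the lower genes of the wider list were Slc48a1, Alas1, Steap3 and Hfe, the last named after its values were seen. Slc48a1 (HRG1), which moves heme out of the phagolysosome, stood at 62.0, 53.5 and 56.7 CPM (Normal), 94.4, 93.6 and 86.8 CPM (ET) and 63.2, 64.4 and 63.5 CPM (M). All ET libraries were above Normal and above M, with a rise over Normal of 1.60-fold (edgeR adjusted p = 2.32e-07). In M, Slc48a1 was also called higher than Normal (log2 change 0.15, edgeR adjusted p = 0.0294). That call ended without Normal replicate 2 or 3 or any M library (edgeR adjusted p of 0.0539 to 0.13). It also ended with total counts only (edgeR adjusted p = 0.359) and with no filter (edgeR adjusted p = 0.103). M was 30.5% below ET (edgeR adjusted p = 0.000106). Alas1, the entry enzyme of heme synthesis, was 21.1% lower in M (edgeR adjusted p = 0.00235), after a rise over Normal of 2.37-fold in ET (edgeR adjusted p = 5.82e-10) and 1.87-fold in M (edgeR adjusted p = 1.35e-08). Steap3, the endosomal ferrireductase, stood at 25.1 ± 0.532 CPM (Normal), 21.9 ± 1.02 (ET) and 15.2 ± 1.30 (M), with M 30.8% below ET (edgeR adjusted p = 0.00129). Its fall from Normal passed in M (edgeR adjusted p = 2.99e-06) and narrowly in ET (edgeR adjusted p = 0.0401), where it ended without any Normal library, ET replicate 1 or ET replicate 3 (edgeR adjusted p of 0.0685 to 0.174), with relative log expression factors (edgeR adjusted p = 0.0594) and in DESeq2 (adjusted p = 0.0564). Hfe, the hemochromatosis protein that partners the transferrin receptor, was 29.9% lower in M than in ET (edgeR adjusted p = 0.0371), a call lost without Normal replicate 1, ET replicate 1 or 2, or any M library (edgeR adjusted p of 0.0504 to 0.136). It stood furthest below Normal of the tested genes of the wider list in M (log2 change -1.59, edgeR adjusted p = 3.58e-07), and had a log2 change of -1.08 in ET (edgeR adjusted p = 1.18e-05). Abcb6, a porphyrin transporter, was named as one of the 3 largest falls from Normal among genes with a mean FPKM of 5 or more in the higher group. It stood at 35.8 ± 1.26 CPM (Normal), 21.3 ± 2.54 (ET) and 24.3 ± 5.54 (M), and was not called between M and ET (edgeR adjusted p = 0.434).

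**Figure D5:**
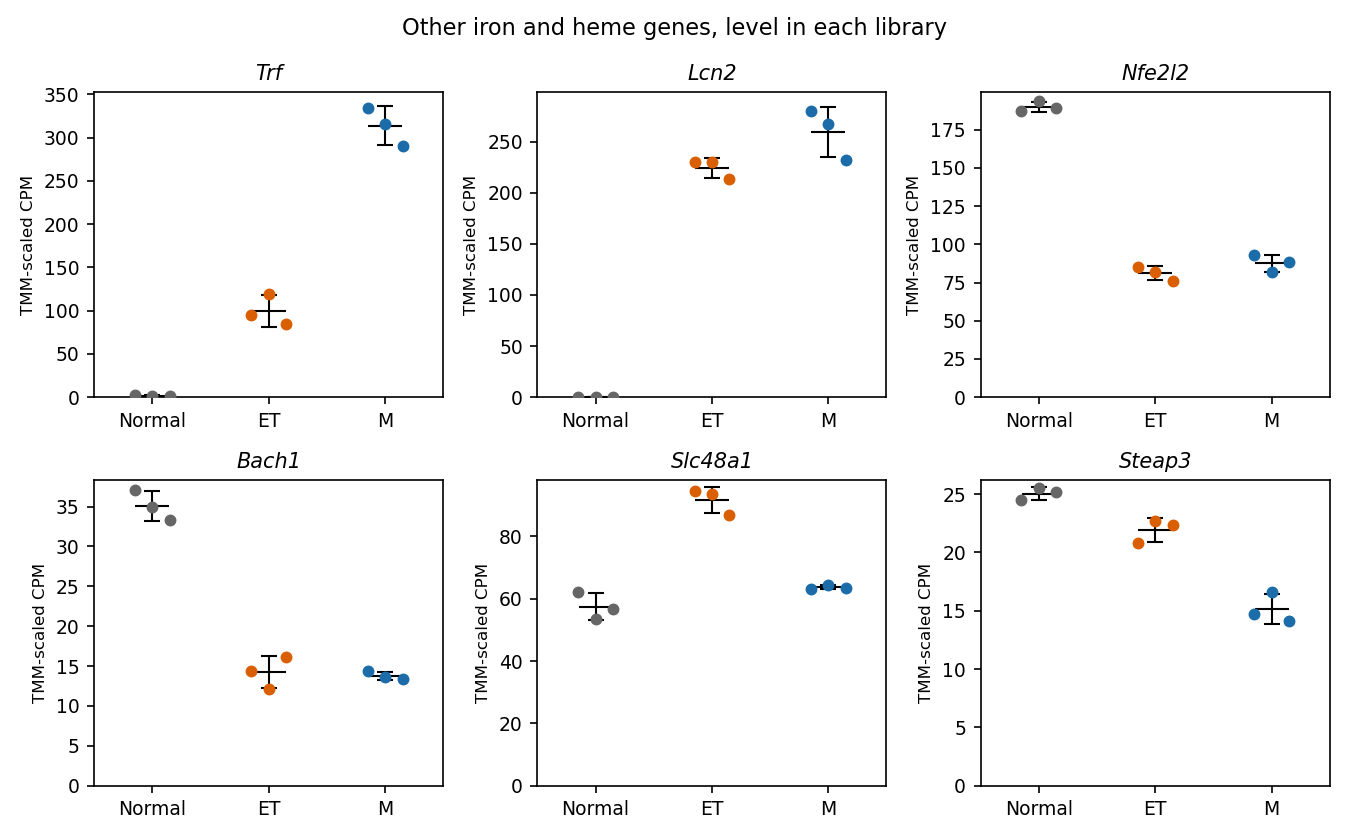
Level of 6 genes of the wider list in TMM-scaled CPM (vertical axes, from 0) in each Normal, ET and M library, with the mean ± SD of 3 as bars. Trf is highest in M, Lcn2 is at 0 in Normal, Nfe2l2 and Bach1 are lower in both treated groups, and Slc48a1 is highest in ET.

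Likeness over the 9 libraries was measured by Pearson's r of log2(CPM + 1) as a description only, since the points fall into the same 3 groups for every gene. Closest to Hmox1 were Hk3 (r = 0.9993), Slc6a8 (0.9992) and Adam15 (0.9990), among 1714 genes with r of at least 0.95. Mean CPM of Hk3 was 25.4 (Normal), 223 (ET) and 147 (M). Closest to Tfrc were Atp6ap2 (r = 0.9990), Cdkl2 (0.9981) and Kpna4 (0.9979), among 1889 such genes. For Slc40a1 only 1 gene reached 0.95: Txnrd1 (r = 0.9625), with mean CPM of 459 (Normal), 479.9 (ET) and 404 (M). It was followed by Cat (0.9373), with 127, 176 and 107, and Tnfaip2 (0.9338). Among the members, Slc40a1 was most like Blvrb (r = 0.922) and Hmox1 most like Fth1 (r = 0.999).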

How the data were processed

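RAW264.7 RNA was measured in 9 libraries of 3 groups. Per the submitters' processing notes, cutadapt 1.9, HISAT2 2.2.1, StringTie 2.1.6, DESeq2 and edgeR were used; counting tool, strand setting and build are not given in the sources used here. The deposited counts were whole numbers. The FPKM values were made by the authors, per the file headers. Gene bounds and strand equalled those of GENCODE M21 (GRCm38) for 23510 of 26146 genes (89.9%); those of Fth1, Slc11a1 and Slc11a2 differed.

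Columns were matched to samples by the column named in each label. The test took the 11536 genes that reached an FPKM of 1 in 3 or more libraries and used edgeR 4.0.16 (quasi-likelihood test, TMM factors, 1 fit of 3 groups, Benjamini-Hochberg adjustment over all tested genes at 0.05) in R 4.3.3. Folds are ratios of mean CPM; SE is the log2 change over the root of F. Alternatives used DESeq2 1.42.0, limma 3.58.1 on log2(FPKM + 1) or log2(FPKM + 0.1), other scalings and filters, a block, and leaving out each library. The fits were tested on simulated data. Ratios used FPKM. Intervals and floors cover counting error or library spread only.

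The members, gene lists and tests were chosen with earlier results of these data known. Named were all members, the 3 largest called changes of the wider list per comparison and direction whose higher group had a mean FPKM of 5 or more, preset regulators, ferritin copies, and the 3 genes most like Hmox1, Slc40a1 and Tfrc.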

Additional observations from a re-analysis of the deposited data

How the results depend on the processing

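Over 710 alternative values of single members, 679 kept direction and side of the threshold, 10 lost a call, 7 gained one and 14 changed sign. Over 630 of the named genes of the wider list, 578 were kept, 30 lost a call, 11 gained one and 11 changed sign. All sign changes were in values not called in the fit reported above. Blvra in the treated mean against Normal was 0.012 with relative log expression factors and 0.012 with DESeq2, and ran from -0.029 to 0.029 as single libraries were left out. Blvrb in the same comparison was -0.040 with total counts only, and -0.030 and -0.039 with limma at pseudocounts of 1 and 0.1. Tfrc in M against ET was -0.0013 with total counts only and ran from -0.060 to 0.094 without single libraries. In M against ET, Hmox2 was -0.00076 and Fbxl5 -0.0076 with total counts only, and Fbxl5 -0.0013 with relative log expression factors and -0.0012 with DESeq2. Without single libraries the M against ET values ran from -0.15 to 0.050 for Bach1, -0.035 to 0.042 for Hmox2, -0.011 to 0.080 for Aco1 and -0.032 to 0.031 for Fbxl5. Ireb2 in M against Normal was -0.071 with total counts only and ran from -0.014 to 0.059 without single libraries. Members called between M and ET numbered 7, but 2 (Slc40a1 and Hamp) when a log2 change of at least 1 was also required, 5 with no filter, and 5 to 8 without single libraries. The wider list had 5 calls between M and ET and 8 with DESeq2 (4 to 7 without single libraries). Over all genes that comparison gave 1048 calls, against 1669 with DESeq2, 615 with no filter and 536 to 1828 without single libraries, the highest without ET replicate 3. With the replicate block 7 members were called between M and ET and 9 in each comparison with Normal, as without it, and it changed no call of a member; among the named genes of the wider list it ended 2 calls (Ireb2 in ET against Normal, adjusted p = 0.0541, and Hfe in M against ET, adjusted p = 0.0666, both edgeR) and made 1 (Lcn2 in M against ET, edgeR adjusted p = 0.028). Deviations of same-numbered libraries from their group means had correlations of -0.083 to 0.044, against -0.059 to 0.087 for libraries of different numbers. Whether same-numbered libraries share a culture day or batch was not tested. Fits of only the groups compared were not run for the treated mean, which needs all groups. At these depths 3 counts stood for 0.0378 to 0.0555 CPM over all libraries. The bounds given for Hamp and Lcn2 rest on the Normal libraries only, at 0.0378 to 0.0509 CPM. The cause of these shifts was not tested.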

Other observations

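Counts in this part are to be read against all tested genes, of which 35% were called higher and 35.2% lower in ET against Normal, 35.5% and 34.5% in M against Normal, and 4.97% and 4.12% in M against ET. Genes that the deposited table assigns to KEGG ferroptosis, an iron-dependent form of cell death, numbered 40, of which 34 were tested, some of them members above. In ET 21 rose and 10 fell (median log2 change 0.52), in M 19 rose and 11 fell (0.30), and between M and ET 3 were higher and 9 lower (-0.10), beside medians of -0.02, -0.01 and 0.00 over all tested genes. Of 21 tested genes of KEGG porphyrin metabolism, 6 rose and 7 fell in ET, and 6 rose and 9 fell in M, a share called near that of all tested genes (70.2% and 70%). Between M and ET, 1 gene of that list was higher and 4 were lower. Of 23 tested genes of KEGG mineral absorption, 17 rose and 2 fell in ET, 15 rose and 3 fell in M, and 2 were higher and 8 lower in M than in ET. Members and other genes named above were not removed from these KEGG lists, so their counts can restate genes already given.

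Of 12 tested genes of mitochondrial iron and iron-sulfur clusters, 3 rose and 4 fell in each treated group against Normal. Of 8 tested genes of heme synthesis, 1 (Alas1) rose and 4 fell in each treated group. Both shares called lie below the 70.2% and 70% of all tested genes, but near them for lists this small. They are not read as a result about these genes.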
